A study of Homo sapiens with 12 samples.

Results

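The mitochondrial ribosomal protein genes were taken as every protein-coding gene whose GENCODE 29 symbol starts with MRPL or MRPS followed by a digit, which gave 78 of the 60554 gene identifiers in the count tables. By symbol, 49 of them encode proteins of the large subunit and 29 encode proteins of the small subunit. All 78 passed the filter on low counts, among 29003 genes tested. The measurements are RNA sequencing of HEK293 cells, a human embryonic kidney line (1 label field says HEK293T, a derivative of it), at passage 10. The 4 groups of 3 libraries each are knockdown of RBM17, of U2SURP and of CHERP, each by a siRNA pool, and a non-targeting control siRNA; all of them are the same line with no other allele or agent in the labels. RBM17, U2SURP and CHERP are proteins that associate with the U2 snRNP, the part of the spliceosome that recognises the branch point.

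The mitochondrial ribosome translates the few mRNAs encoded by mitochondrial DNA, all of them for subunits of the respiratory chain and ATP synthase. Its rRNAs come from mitochondrial DNA, while its proteins are encoded in the nucleus, made in the cytosol and imported. The symbols do not follow the structure in every case. The products of MRPS30 and MRPS18A sit in the large subunit, and the product of MRPS36 is a component of the 2-oxoglutarate dehydrogenase complex.

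Each library held between 252505520 and 320986785 gene counts. RBM17 had 26.6, 26.0 and 27.0 CPM (counts scaled to a common library size) in its own knockdown libraries, against 112, 116 and 118 CPM in control libraries, a log2 fold change of -2.12 ± 0.05 (SE). U2SURP had 149, 144 and 138 CPM in its own libraries, against 434, 480 and 499 CPM in control libraries (-1.71 ± 0.06), and CHERP 18.8, 17.9 and 17.2 CPM, against 61.6, 62.1 and 60.1 CPM (-1.77 ± 0.05). Of the HEK293 markers, 7 of 7 passed the filter, with a summed level of 757 to 981 CPM in the knockdown libraries and 723 to 810 CPM in the control libraries. Of the fibroblast markers 4 of 5 passed, summing to 9.95 to 14.4 CPM in knockdown libraries and 17.2 to 21.6 CPM in control libraries, and their part in the results was not tested. Markers of blood, endothelium and liver summed to at most 3.91, 0.189 and 3.47 CPM in knockdown libraries, against 4.54, 0.251 and 1.83 CPM in control libraries. Library numbers run in blocks, 1 block a group, and any batch that follows them cannot be told apart from the siRNA. Whether libraries of a group are separate cultures is not stated, and the p-values then rest on a spread that may be technical.

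After RBM17 knockdown, most mitochondrial ribosomal protein mRNAs rose: 63 of 78 were higher than in control cells and 4 were lower, at an adjusted p under 0.05 (edgeR's quasi-likelihood test, Benjamini-Hochberg over all genes tested). Over all genes tested, 25.4% were called higher and 29.3% lower in the same comparison. Over the 16291 protein-coding genes tested, 38.7% were called higher and 27.2% lower, so the share of 80.8% of members called higher stood above both backgrounds. Both include genes of low level, while 75 of the 78 members had 5 CPM or more. Of protein-coding genes at 5 CPM or more, 48.6%, 55.7% and 48.2% were called higher (2 to 3, 4 to 6, and 7 or more exons). The members' median log2 fold change was 0.52, a 1.43-fold difference, against a median of -0.10 over all genes and 0.06 over protein-coding genes. After U2SURP knockdown 39 members were higher and 10 were lower, with a median of 0.15. The backgrounds over all genes were 21.1% higher and 22.2% lower, and over protein-coding genes 29.4% and 26.8%. After CHERP knockdown 37 members were higher and 16 were lower, with a median of 0.11. The backgrounds over all genes were 22.8% higher and 24.6% lower, and over protein-coding genes 29.7% and 31.0%. For protein-coding genes at 5 CPM or more the share higher was 30.1%, 39.6% and 35.6% in these exon classes, against 47.4% of members. The 3 comparisons share the control libraries. In bulk RNA, fewer cells that express a gene and less of its RNA per cell cannot be told apart. When GC content and length entered the fit as offsets, 57 members were higher and 11 lower after RBM17 knockdown. In that fit 6359 of 28556 genes were higher and 10288 lower, with a median of -0.19.

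Most genes of either subunit rose after RBM17 knockdown, and the difference between subunits was not tested. Of the large-subunit genes, 40 of 49 rose and 2 fell, with a median log2 fold change of 0.52. Of the small-subunit genes, 23 of 29 rose and 2 fell, with a median of 0.54. These medians were 0.31 and 0.33 when GC content and length entered the fit as offsets. The median over all genes was -0.19 in that fit, against -0.10 without the offsets. After U2SURP knockdown 26 large-subunit genes rose and 7 fell (median 0.18), and 13 small-subunit genes rose and 3 fell (median 0.15). After CHERP knockdown 24 large-subunit genes rose and 8 fell (median 0.16), and 13 small-subunit genes rose and 8 fell (median 0.07). Without CHERP knockdown library 3 the CHERP medians were 0.08 and 0.03, and without U2SURP knockdown library 1 the small-subunit median was 0.04. With MRPS30 and MRPS18A counted in the large subunit and MRPS36 in neither, the CHERP knockdown medians were 0.16 for 51 large-subunit genes and 0.02 for 26 small-subunit genes.

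**Figure D1:**
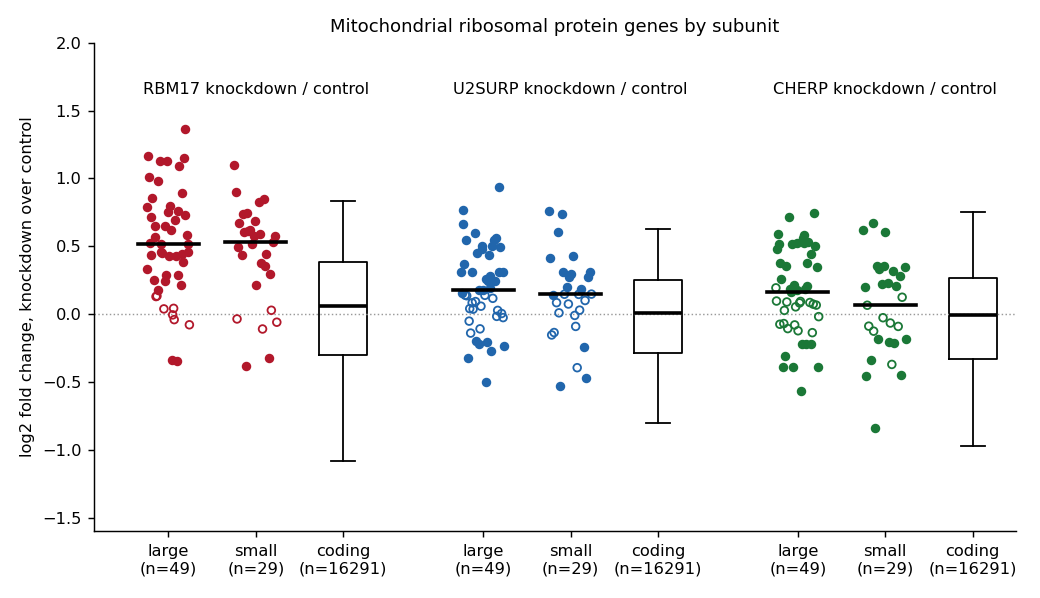
Log2 fold change of each knockdown over control siRNA for the 49 large-subunit genes, the 29 small-subunit genes (points, filled where the adjusted p was under 0.05; bars, medians) and the 16291 protein-coding genes tested (boxes, quartiles; whiskers, 5th to 95th percentile). The members' medians lie above those of protein-coding genes in each knockdown, by the most after RBM17 knockdown, where they are 0.52 and 0.54.

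The largest rise was that of MRPL47 (ENSG00000136522; GRCh38, chromosome 3, 179588285 to 179604654, minus strand), a large-subunit protein with a counterpart in bacterial ribosomes. It had 46.9, 58.2 and 57.9 CPM in RBM17 knockdown libraries, 37.9, 42.0 and 41.3 CPM in U2SURP knockdown libraries and 32.5, 36.5 and 37.2 CPM in CHERP knockdown libraries, against 20.0, 19.9 and 23.4 CPM in control libraries. No knockdown library overlapped a control library. The log2 fold changes were 1.36 ± 0.08 for RBM17, 0.94 ± 0.08 for U2SURP and 0.75 ± 0.08 for CHERP (SE; adjusted p 2.69e-11, 1.55e-08 and 1.76e-07). Its exons overlap those of ACTL6A on the other strand. Whether the counting used strand is not given, so reads of such pairs cannot be told apart. Over the 37 members with no exon overlap on either strand, 33 rose and 1 fell after RBM17 knockdown (median 0.57), 21 rose and 2 fell after U2SURP knockdown (0.25), and 21 rose and 5 fell after CHERP knockdown (0.20).

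MRPL3 (ENSG00000114686; GRCh38, chromosome 3, 131462212 to 131502983, minus strand), whose product has a counterpart in the bacterial large subunit, had 198, 238 and 235 CPM in RBM17 knockdown libraries, 143, 163 and 156 CPM in U2SURP knockdown libraries and 143, 154 and 159 CPM in CHERP knockdown libraries, against 99.5, 103 and 113 CPM in control libraries. The groups did not overlap with control, and the log2 fold changes were 1.09 ± 0.07, 0.55 ± 0.07 and 0.53 ± 0.07 in the same order of knockdowns. MRPS10, a small-subunit protein, had 75.8, 86.2 and 82.5 CPM in RBM17 knockdown libraries, 62.0, 68.1 and 63.2 CPM in U2SURP knockdown libraries and 54.7, 59.2 and 61.0 CPM in CHERP knockdown libraries, against 35.0, 37.6 and 41.4 CPM in control libraries. Its log2 fold changes were 1.10 ± 0.06, 0.76 ± 0.06 and 0.62 ± 0.06, and here too all 9 knockdown libraries lay above all 3 control libraries.

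MRPL47, MRPS10, MRPL39, MRPL21, MRPL58 and MRPL3 had the highest mean log2 fold change among members called higher in all 3 knockdowns. MRPL39, which encodes a large-subunit protein with no bacterial counterpart, differed by 1.13 ± 0.08, 0.60 ± 0.08 and 0.72 ± 0.08 after RBM17, U2SURP and CHERP knockdown. MRPL21 differed by 1.17 ± 0.06, 0.77 ± 0.06 and 0.48 ± 0.06. MRPL58, also known as ICT1, is a peptidyl-tRNA hydrolase that releases stalled mitochondrial ribosomes and is also built into the large subunit. It differed by 1.01 ± 0.07, 0.67 ± 0.07 and 0.59 ± 0.07. Other members with a rise after RBM17 knockdown above a doubling were MRPL12 (1.15 ± 0.08) and MRPL13 (1.13 ± 0.07). Among the 6 largest rises after U2SURP knockdown were also MRPS9 (0.74 ± 0.07) and MRPS35 (0.61 ± 0.07), and after CHERP knockdown MRPS35 (0.67 ± 0.07) and MRPS27 (0.61 ± 0.06), all of them small-subunit genes.

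In all, 27 members rose in all 3 knockdowns, 17 of the large and 10 of the small subunit. That is 34.6% of members, against 10.2% of all genes tested, which include genes of low level. Another 14 were called higher after RBM17 knockdown and not called in U2SURP or CHERP knockdown: MRPL4, MRPL14, MRPL19, MRPL23, MRPL35, MRPL36, MRPL40, MRPL46, MRPL54, MRPL57, MRPS5, MRPS11, MRPS12 and MRPS28. How many of all genes tested had that pattern was not counted, so it is not read as a trait of the members. The list rests in part on the threshold. MRPL46 had log2 fold changes of 0.18, 0.08 and 0.09 after RBM17, U2SURP and CHERP knockdown, while MRPL23 had 0.98, 0.04 and -0.11. Because the RBM17, U2SURP and CHERP contrasts use the same control libraries, the direct contrasts between knockdowns give the differences themselves. In RBM17 knockdown cells 62 members were higher and 4 lower than in U2SURP knockdown cells, beside 23.0% of all genes higher and 21.5% lower. In RBM17 knockdown cells 61 members were higher and 5 lower than in CHERP knockdown cells, beside 26.1% and 25.5% of all genes. In U2SURP knockdown cells 20 members were higher and 6 lower than in CHERP knockdown cells, beside 15.0% and 12.9% of all genes. The protein-coding backgrounds were 36.2% (higher) and 20.3% (lower) in RBM17 than in U2SURP knockdown cells, 40.4% and 23.0% in RBM17 than in CHERP knockdown cells, and 21.4% and 15.2% in U2SURP than in CHERP knockdown cells. The members' share of 25.6% higher in U2SURP than in CHERP knockdown cells is near that background. With GC content and length as offsets, 8, 9 and 15 members were lower in these contrasts. Over all genes, 7787, 9334 and 5089 of 28556 were lower with the offsets, against 6232, 7397 and 3738 of 29003 without them. The 4 members lower in RBM17 than in U2SURP knockdown cells were 2 without RBM17 library 1, U2SURP library 1 or U2SURP library 3. The 6 lower in U2SURP than in CHERP knockdown cells were 11 without RBM17 library 1 and 10 without CHERP library 1 or control library 3. The median differences were 0.33, 0.43 and 0.02 on the log2 scale.

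**Figure D2:**
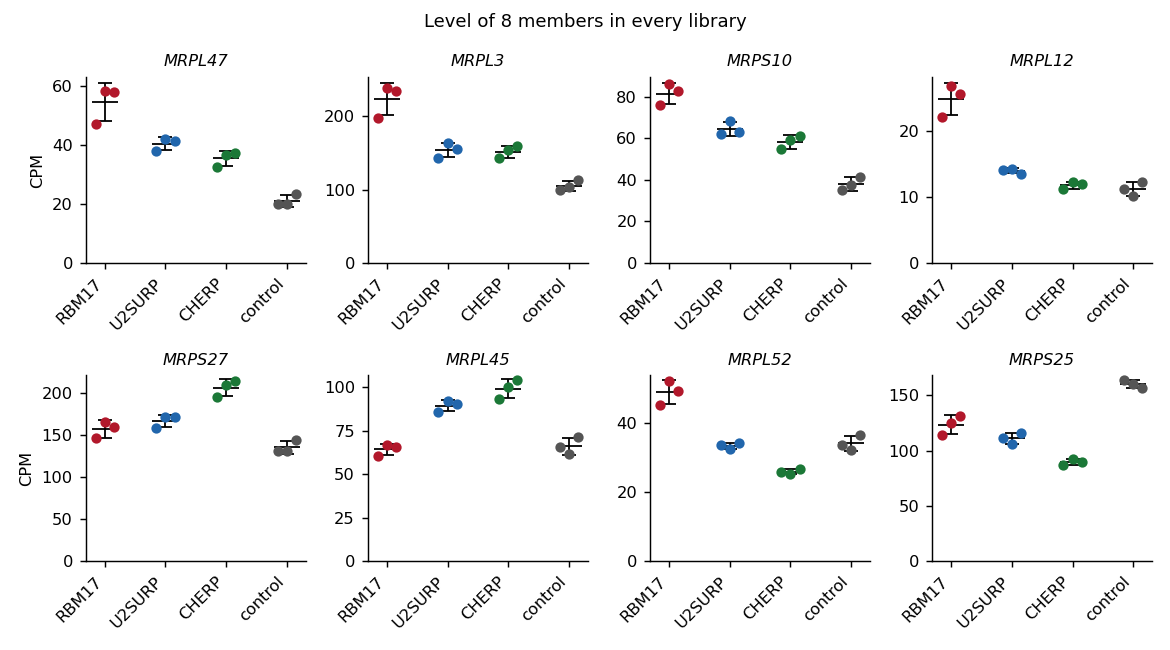
Level in CPM of MRPL47, MRPL3, MRPS10, MRPL12, MRPS27, MRPL45, MRPL52 and MRPS25 in every library (points), with the mean and SD of each group of 3 (black). The first 4 are highest in RBM17 knockdown libraries, MRPS27 and MRPL45 in CHERP knockdown libraries, MRPL52 lies above control in RBM17 and below it in CHERP knockdown libraries, and MRPS25 is highest in control libraries.

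Promoter sequences of 70 of the 78 members were found in RefSeq (GRCh38.p14), as windows from 250 bases before to 50 bases after the first start listed for each gene. The letters AAGATGGC, a core of the YY1 site, were present on either strand in 20 of 70 members' windows, or 28.6%, against 3.91% of the windows of 15842 protein-coding genes and 3.03% of all 27305 windows. The ETS letters CCGGAAGT, read by GABP and other ETS factors, were in 15.7% of members' windows, against 6.19% of protein-coding and 4.44% of all windows. The letters GCGCATGC, taken from the NRF1 site, were in 8.57%, against 4.26% and 3.27%. The letters GGGCGG, a core of the SP1 site, were in 61.4%, against 58.5% and 44.6%, and the E-box CACGTG was in 10.0%, against 8.88% and 7.43%. Each motif was searched on its own, on both strands, so a match of 1 may overlap a match of another. The YY1 letters were in 28.6% of the windows of both subunits, and the ETS letters in 21.4% of large-subunit and 7.14% of small-subunit windows. Members with the YY1 letters had median log2 fold changes of 0.48, 0.16 and 0.18 after RBM17, U2SURP and CHERP knockdown, against 0.51, 0.14 and 0.09 for members without them. For the ETS letters (11 members) the medians were 0.52, 0.09 and 0.16 with and 0.46, 0.15 and 0.09 without. For the NRF1 letters (6 members) they were 0.55, 0.30 and 0.29 with and 0.48, 0.14 and 0.09 without, and for the E-box (7 members) 0.52, 0.37 and 0.38 with and 0.50, 0.14 and 0.09 without. For the SP1 letters (43 members) they were 0.50, 0.14 and 0.09 with and 0.52, 0.20 and 0.18 without. None of these differences was tested.

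Shown here are the 120 bases before the start of MRPL47 and MRPL3, which rose in all 3 knockdowns, of MRPL52, which was called in opposite directions, and of MRPS25, which fell in all 3. Bases run 5′ to 3′ on the gene's strand, and capitals mark the YY1 and ETS letters on either strand. The windows are chr3:179604639-179604758 (minus strand), chr3:131502972-131503091 (minus), chr14:22829767-22829886 (plus) and chr3:15065316-15065435 (minus).
MRPL47: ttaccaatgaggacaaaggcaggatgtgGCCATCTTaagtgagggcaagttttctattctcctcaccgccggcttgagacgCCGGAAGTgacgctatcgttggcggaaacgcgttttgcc
MRPL3: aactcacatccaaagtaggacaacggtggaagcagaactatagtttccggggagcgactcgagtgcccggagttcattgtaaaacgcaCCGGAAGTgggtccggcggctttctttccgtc
MRPL52: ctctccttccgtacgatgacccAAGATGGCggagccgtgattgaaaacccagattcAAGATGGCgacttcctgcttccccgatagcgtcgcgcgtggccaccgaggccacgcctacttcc
MRPS25: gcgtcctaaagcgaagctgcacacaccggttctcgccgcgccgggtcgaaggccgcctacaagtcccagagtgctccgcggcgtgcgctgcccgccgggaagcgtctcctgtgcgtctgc
A window without capitals says only that these letters are not in it. MRPL38 and MRPL53, also lower in all 3 knockdowns, had the ETS letters in their full windows, and MRPL38 the YY1 letters too. Among members that rose in all 3, the full windows of MRPL39 and MRPL58 held neither, and that of MRPS10 held the YY1 letters. The full window of MRPL52 also held the ETS and NRF1 letters. Whether the letters go with the direction of change was not tested.

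A few members fell while most rose. MRPS25 (ENSG00000131368; GRCh38, chromosome 3, 15042460 to 15065335, minus strand), a small-subunit protein with no bacterial counterpart, had 114, 125 and 131 CPM in RBM17 knockdown libraries, 111, 106 and 116 CPM in U2SURP knockdown libraries and 86.9, 92.4 and 89.7 CPM in CHERP knockdown libraries, against 164, 160 and 157 CPM in control libraries. All knockdown libraries lay below all control libraries. Its exons overlap NR2C2 on the other strand. The log2 fold changes were -0.38 ± 0.05, -0.53 ± 0.05 and -0.84 ± 0.05 (SE; adjusted p 2.03e-06, 4.68e-08 and 1.61e-11), and it was 0.46 ± 0.05 higher in RBM17 than in CHERP knockdown cells and 0.31 ± 0.05 higher in U2SURP than in CHERP knockdown cells. MRPS25 was the member with the lowest log2 fold change in each of the 3 knockdowns.

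MRPL53 and MRPL38, both of the large subunit, were the other members lower in all 3 knockdowns, which makes 3.85% of members, against 10.8% of all genes. Under the GC content and length offsets 7 members were lower in all 3, and the share over all genes in that fit was not counted. MRPL53 differed by -0.34 ± 0.08, -0.50 ± 0.08 and -0.57 ± 0.08 after RBM17, U2SURP and CHERP knockdown, from 7.77 to 8.12 CPM in control libraries. It shares 45.2% of its exon bases with CCDC142 on the same strand. MRPL38 differed by -0.35 ± 0.09, -0.27 ± 0.09 and -0.22 ± 0.09 at 4.22 to 4.88 CPM in control libraries, and shares 37.5% of its exon bases with AC087289.3. Its call after CHERP knockdown was lost with DESeq2 size factors (adjusted p = 0.066).

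MRPS21, a small-subunit protein with a bacterial counterpart, was lower after RBM17 knockdown (-0.32 ± 0.06) and U2SURP knockdown (-0.24 ± 0.06) and had -0.09 ± 0.06 after CHERP knockdown. MRPS14, likewise of the small subunit, had 27.6, 26.6 and 28.4 CPM in U2SURP knockdown libraries and 27.8, 27.6 and 28.0 CPM in CHERP knockdown libraries, against 36.5, 36.6 and 41.0 CPM in control libraries. That is -0.47 ± 0.06 and -0.45 ± 0.05, while RBM17 knockdown libraries overlapped control at 37.4, 39.5 and 39.5 CPM (0.03 ± 0.05). MRPL43 also fell after U2SURP (-0.22 ± 0.06) and CHERP knockdown (-0.39 ± 0.06) and had 0.04 ± 0.06 after RBM17 knockdown. MRPS6, a small-subunit gene that shares exon bases with SLC5A3, was called lower after CHERP knockdown at -0.45 ± 0.07. MRPL32, a large-subunit protein that is trimmed by the m-AAA protease before assembly, was called lower after U2SURP knockdown at -0.24 ± 0.06.

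The call differed in direction between knockdowns for 8 members, 4 of each subunit by symbol. That is 10.3% of members, near the 7.74% of all genes. In each of them RBM17 knockdown gave the higher call. The count was 5 without control library 3, also when RBM17 library 2 was left out with it, and 12 without U2SURP library 1. MRPL52 (ENSG00000172590; GRCh38, chromosome 14, 22829879 to 22835037, plus strand), a large-subunit protein with no bacterial counterpart, had 45.3, 52.3 and 49.5 CPM in RBM17 knockdown libraries, 33.7, 32.6 and 34.4 CPM in U2SURP knockdown libraries and 26.0, 25.3 and 26.9 CPM in CHERP knockdown libraries, against 33.7, 32.2 and 36.7 CPM in control libraries. RBM17 knockdown libraries lay above control, CHERP knockdown libraries lay below it and U2SURP knockdown libraries overlapped it. The log2 fold changes were 0.52 ± 0.06, -0.03 ± 0.06 and -0.39 ± 0.06, and RBM17 knockdown cells exceeded CHERP knockdown cells by 0.91 ± 0.06 (adjusted p 9.1e-12).

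MRPL55, MRPS2, MRPS17 and MRPS34 had the same order: higher after RBM17 knockdown by 0.44, 0.44, 0.36 and 0.59, and lower after CHERP knockdown by log2 differences of -0.22, -0.34, -0.21 and -0.20. MRPL41 was higher after RBM17 knockdown (0.25 ± 0.07) and lower after U2SURP (-0.32 ± 0.07) and CHERP knockdown (-0.39 ± 0.07), and its value after CHERP knockdown was 0.04 with offsets for GC content and length. MRPL51 was higher after RBM17 knockdown (0.52 ± 0.06) and CHERP knockdown (0.16 ± 0.06) and lower after U2SURP knockdown (-0.19 ± 0.06). Its U2SURP knockdown libraries stood at 56.2, 53.7 and 56.9 CPM, against 60.0, 60.7 and 70.1 CPM in control libraries.

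The 3 paralogues that go by MRPS18 did not move alike. MRPS18B differed by 0.58 ± 0.06, 0.31 ± 0.06 and 0.35 ± 0.06 after RBM17, U2SURP and CHERP knockdown, and MRPS18C by 0.82 ± 0.08, 0.43 ± 0.07 and 0.23 ± 0.08. MRPS18A, whose product lies in the large subunit, had 15.2, 16.9 and 16.7 CPM in RBM17 knockdown libraries, 13.3, 12.9 and 13.5 CPM in U2SURP knockdown libraries and 8.73, 9.42 and 9.94 CPM in CHERP knockdown libraries, against 10.8, 9.42 and 11.8 CPM in control libraries. It was higher by 0.61 ± 0.08 and 0.31 ± 0.08 in the first 2 knockdowns, and at -0.19 ± 0.08 after CHERP knockdown its libraries overlapped control. That last call was lost with DESeq2 size factors (adjusted p = 0.089). U2SURP knockdown cells exceeded CHERP knockdown cells by 0.50 ± 0.08, the largest difference of a member in that contrast. MRPS30, the other large-subunit protein with a small-subunit symbol, rose by 0.44, 0.19 and 0.21 after RBM17, U2SURP and CHERP knockdown (SE 0.06 each). MRPS36 rose after RBM17 knockdown (0.29 ± 0.07) and CHERP knockdown (0.28 ± 0.07) and had 0.10 ± 0.07 after U2SURP knockdown.

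Other members differed most in the direct contrasts. MRPL45 (ENSG00000278845; GRCh38, chromosome 17, 38297023 to 38323218, plus strand), the large-subunit protein that tethers the ribosome to the inner membrane, had 60.6, 66.8 and 65.4 CPM in RBM17 knockdown libraries, 85.8, 92.1 and 90.2 CPM in U2SURP knockdown libraries and 93.4, 100 and 104 CPM in CHERP knockdown libraries, against 65.5, 61.6 and 71.2 CPM in control libraries. RBM17 knockdown libraries overlapped control (-0.04 ± 0.06) and both other groups lay above it (0.44 ± 0.06 and 0.58 ± 0.06). RBM17 knockdown cells were lower by -0.48 ± 0.06 than U2SURP and by -0.62 ± 0.06 than CHERP knockdown cells, and was 1 of 4 and 1 of 5 members called lower in those contrasts. MRPL10, a protein at the base of the ribosomal stalk, had the same order, with 0.04 ± 0.05, 0.25 ± 0.05 and 0.56 ± 0.05 over control, and MRPL11, its neighbour there, had 0.13 ± 0.06, 0.31 ± 0.06 and 0.36 ± 0.06. MRPL11 was called after RBM17 knockdown with DESeq2 size factors (adjusted p = 0.01).

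MRPL12, the stalk protein that MRPL10 carries, was highest after RBM17 knockdown, at 22.1, 26.8 and 25.6 CPM. It stood at 14.1, 14.2 and 13.5 CPM in U2SURP knockdown libraries, 11.2, 12.2 and 11.9 CPM in CHERP knockdown libraries and 11.2, 10.2 and 12.3 CPM in control libraries. The first 2 groups lay above control and the CHERP knockdown libraries overlapped it, with log2 fold changes of 1.15 ± 0.08, 0.31 ± 0.07 and 0.07 ± 0.07. MRPL12 shares 68.2% of its exon bases with AC139530.2 on the same strand. MRPL23, a protein beside the exit of the nascent chain, was higher in RBM17 than in U2SURP knockdown cells by 0.95 ± 0.11 and than in CHERP knockdown cells by 1.09 ± 0.11. It overlaps MRPL23-AS1 on the other strand. MRPL28 (0.72 ± 0.06) and MRPL51 (0.71 ± 0.06) also led the contrast of RBM17 over U2SURP knockdown.

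MRPS27, a pentatricopeptide repeat protein of the small subunit, rose most after CHERP knockdown: 146, 166 and 160 CPM in RBM17 knockdown libraries, 158, 171 and 171 CPM in U2SURP knockdown libraries and 195, 210 and 214 CPM in CHERP knockdown libraries, against 131, 131 and 144 CPM in control libraries. All 3 knockdowns lay above control, and U2SURP knockdown cells were lower than CHERP knockdown cells by -0.31 ± 0.06. MRPS2 (0.43 ± 0.05), MRPS9 (0.38 ± 0.06) and MRPL52 (0.37 ± 0.06) were higher in U2SURP than in CHERP knockdown cells, while MRPL51 (-0.36 ± 0.06), MRPL10 (-0.32 ± 0.05) and MRPL22 (-0.24 ± 0.07) were lower. MRPS33 was lower in RBM17 than in U2SURP knockdown cells (-0.21 ± 0.07), a call that was lost with DESeq2 size factors (adjusted p = 0.051).

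**Figure D3:**
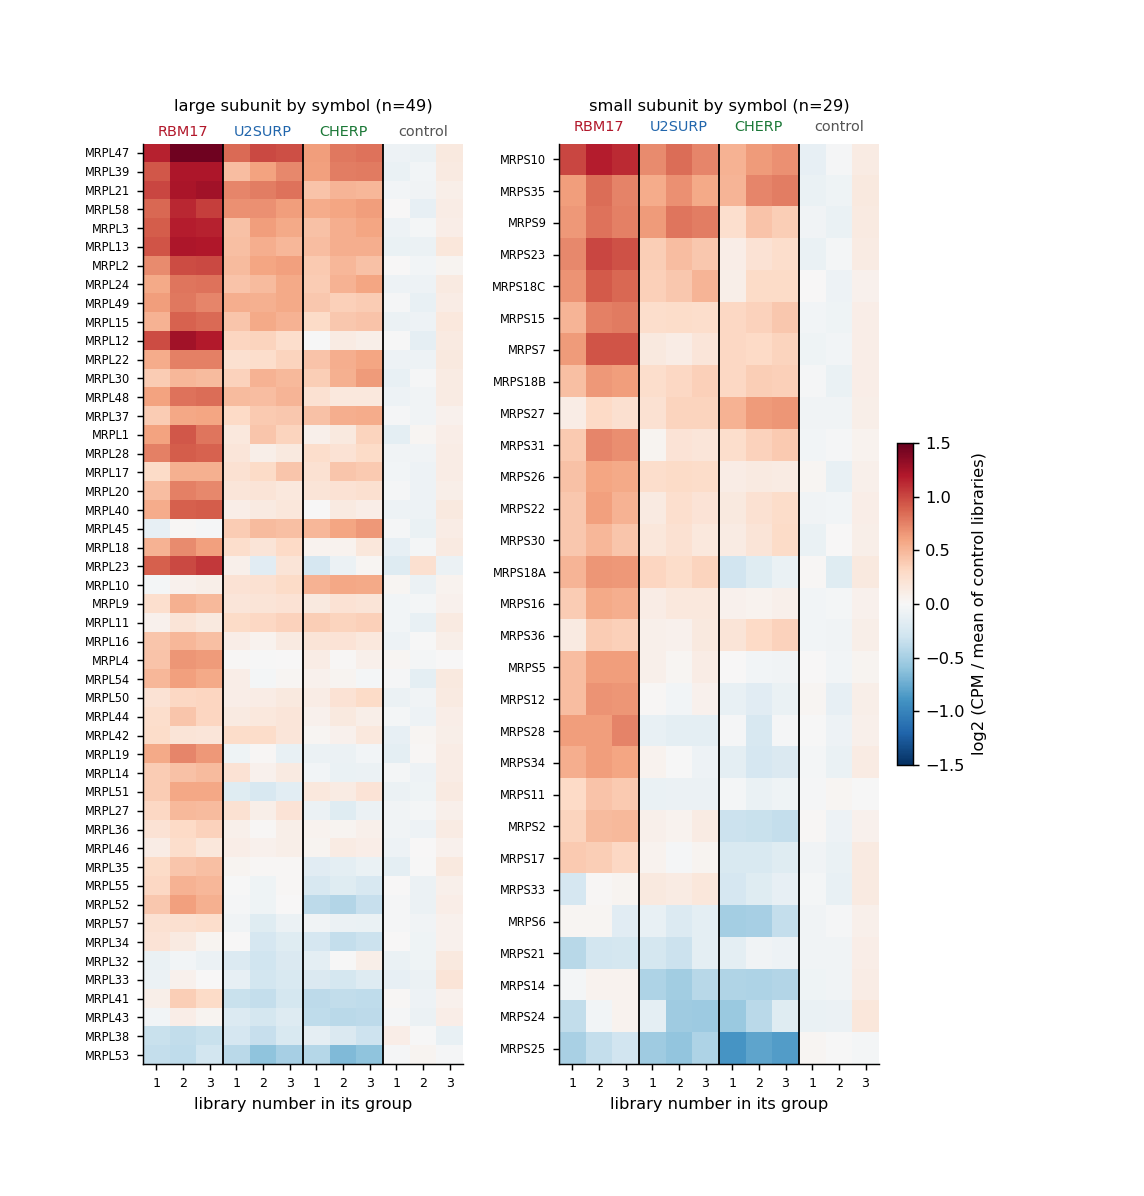
Log2 of each member's CPM over the mean of the 3 control libraries, for the 12 libraries (columns, in groups of 3) and the 78 members (rows, by subunit, ordered by their mean over the 9 knockdown libraries). Red is higher and blue lower than control; library 1 of RBM17 knockdown is paler than libraries 2 and 3, and library 3 of control is redder than libraries 1 and 2.

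The members' level per length spanned a wide range. Over all libraries, MRPL37, a large-subunit protein, stood highest at 103 CPM per kilobase of exon, followed by MRPS34 at 85.8 and MRPS26 at 60.3 CPM per kilobase. MRPL37 had 202, 197 and 214 CPM and MRPS34 84.3, 80.5 and 94.0 CPM in control libraries. MRPL37 rose by 0.52, 0.37 and 0.52 (log2) after RBM17, U2SURP and CHERP knockdown, and MRPS26 rose by 0.54 and 0.28 after RBM17 and U2SURP knockdown and had 0.13 after CHERP knockdown. The median level in control libraries was 14.4 CPM per kilobase for large-subunit and 12.8 for small-subunit genes. The lowest were MRPS24 (0.207 CPM per kilobase), MRPL38 (1.08) and MRPS28 (1.55), and each shares exon bases with another gene on its own strand: 23.2% with the read-through gene URGCP-MRPS24, 37.5% with AC087289.3 and 35.8% with AC036214.3. The part of shared exons in these low levels was not tested. MRPS24 was the only member called in no knockdown, at 0.483 to 0.646 CPM in RBM17 knockdown libraries, 0.429 to 0.566 CPM in U2SURP knockdown libraries and 0.426 to 0.549 CPM in CHERP knockdown libraries, against 0.585 to 0.702 CPM in control libraries. The share called in no knockdown was 1.28% of members, against 27.5% of all genes tested, which include genes of low level.

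Summed over the 49 large-subunit genes, the level was 1170, 1340 and 1320 CPM per kilobase in RBM17 knockdown libraries, 1010, 1030 and 1050 in U2SURP knockdown libraries and 994, 1040 and 1060 in CHERP knockdown libraries, against 820, 812 and 914 in control libraries. Summed over the 29 small-subunit genes, it was 666, 748 and 733 in RBM17 knockdown libraries, 571, 582 and 583 in U2SURP knockdown libraries and 536, 556 and 561 in CHERP knockdown libraries, against 503, 489 and 548 in control libraries. Every knockdown library lay above all control libraries for the large subunit, and for the small subunit the CHERP knockdown libraries overlapped control. The ratio of large to small was 1.75, 1.80 and 1.81 in RBM17 knockdown libraries, 1.77, 1.77 and 1.80 in U2SURP knockdown libraries and 1.85, 1.87 and 1.88 in CHERP knockdown libraries, against 1.63, 1.66 and 1.67 in control libraries. The ratios of all 9 knockdown libraries lay above those of all control libraries, without division by length too (1.56 to 1.63 against 1.42 to 1.46). The sums are a description by symbol in which abundant genes weigh most, and they were not tested. Per gene, the median log2 fold changes after RBM17 knockdown were 0.52 for the large and 0.54 for the small subunit.

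The mRNAs that the mitochondrial ribosome translates were lower. All 13 mitochondrial mRNA genes fell in each knockdown, with medians of -0.71, -0.68 and -0.94 after RBM17, U2SURP and CHERP knockdown. Over all genes tested, 29.3%, 22.2% and 24.6% were called lower in the same comparisons. Their summed level was 42100, 44300 and 40700 CPM in RBM17 knockdown libraries, 42900, 44000 and 42600 CPM in U2SURP knockdown libraries and 38100, 33900 and 32400 CPM in CHERP knockdown libraries, against 67800, 63500 and 74400 CPM in control libraries. MT-CYB, the cytochrome b of complex III, differed by -1.05 ± 0.07, -0.63 ± 0.07 and -1.20 ± 0.07, and MT-ND1, a complex I subunit, by -0.38 ± 0.06, -0.84 ± 0.06 and -0.94 ± 0.06. The 2 mitochondrial rRNA genes were lower too: MT-RNR1, the small-subunit rRNA, by -0.97, -1.21 and -1.13, and MT-RNR2, the large-subunit rRNA, by -0.64, -0.76 and -0.91. The libraries were made with an mRNA kit, so the level of rRNA is what remained in it.

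**Figure D4:**
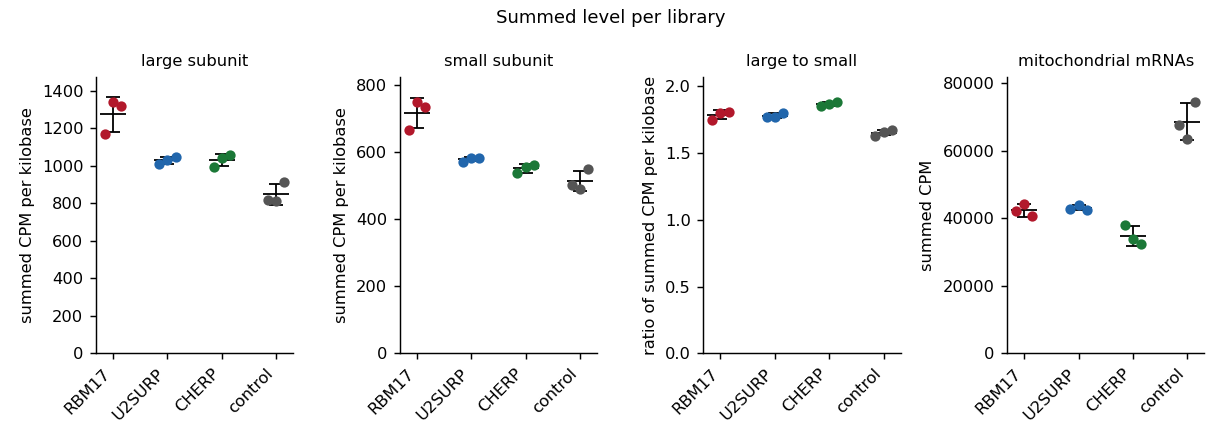
Summed level per library of the large-subunit genes and the small-subunit genes (CPM per kilobase of exon), their ratio, and the summed CPM of the 13 mitochondrial mRNA genes; points are libraries, black marks the mean and SD of each group of 3. The large-subunit sum and the ratio lie above control in all 9 knockdown libraries, and the mitochondrial mRNA sum lies below it in all 9.

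Genes of the same machinery without an MRP symbol were called in both directions. The backgrounds for their counts are the shares of protein-coding genes given above: 38.7% higher and 27.2% lower after RBM17 knockdown, 29.4% and 26.8% after U2SURP knockdown, and 29.7% and 31.0% after CHERP knockdown. Protein-coding genes at 5 CPM or more were called higher more often, as given above. Of 5 further mitoribosomal proteins, 2 rose and 2 fell after RBM17 knockdown (median 0.15), and 1 rose and 1 fell after each of the other knockdowns. GADD45GIP1, a large-subunit protein, had 45.9, 52.6 and 52.0 CPM in RBM17 knockdown libraries, against 27.5, 27.3 and 30.9 CPM in control libraries (0.81 ± 0.06), and AURKAIP1, a small-subunit protein, rose by 0.61 ± 0.06. DAP3, the GTP-binding protein of the small subunit, ran the other way: it was lower after RBM17 knockdown (-0.25 ± 0.06) and higher after U2SURP (0.28 ± 0.06) and CHERP knockdown (0.24 ± 0.06). PTCD3, a pentatricopeptide repeat protein of the small subunit, was lower by -0.12, -0.35 and -0.20, and its call after RBM17 knockdown was lost with DESeq2 size factors (adjusted p = 0.29).

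Of 28 assembly and rRNA modification factors, 18 rose and 5 fell after RBM17 knockdown (median 0.31), 9 rose and 5 fell after U2SURP knockdown (0.10), and 11 rose and 8 fell after CHERP knockdown (0.04). That is 64.3% higher after RBM17, 32.1% after U2SURP and 39.3% after CHERP knockdown, of which the U2SURP share is near the background. Among protein-coding genes at 5 CPM or more, 30.1%, 39.6% and 35.6% were higher after CHERP knockdown in the 3 exon classes. The CHERP share is near that background. MTG1, a GTPase of large-subunit assembly, had 4.67, 5.11 and 4.99 CPM in RBM17 knockdown libraries, 4.10, 3.57 and 3.72 CPM in U2SURP knockdown libraries and 1.98, 2.19 and 1.78 CPM in CHERP knockdown libraries, against 8.17, 8.14 and 7.21 CPM in control libraries. The groups did not overlap with control, and the log2 fold changes were -0.67 ± 0.09, -1.05 ± 0.09 and -1.98 ± 0.09. MTG1 shares 29.9% of its exon bases with AL360181.3 on the same strand. MRM1, an rRNA methyltransferase, was also lower in all 3 (-0.36, -0.86 and -0.86). MRM2, another rRNA methyltransferase, was higher by 0.80, 0.58 and 0.28, NGRN, which the large-subunit rRNA needs, by 0.70, 0.65 and 0.62, and the GTPase MTG2 by 0.61, 0.41 and 0.35. NOA1, a GTPase of small-subunit assembly, was called lower after RBM17 knockdown (-0.56 ± 0.05) and had -0.03 ± 0.05 and 0.10 ± 0.05 after U2SURP and CHERP knockdown. MTERF4, which acts with NSUN4 on the large subunit, fell after U2SURP (-0.33 ± 0.06) and CHERP knockdown (-0.59 ± 0.06).

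Of 14 translation factors and mRNA binders, 9 rose and 3 fell after RBM17 knockdown (median 0.36), 5 rose and 3 fell after U2SURP knockdown (0.02), and 7 rose and 3 fell after CHERP knockdown (0.12). The share higher was 64.3% after RBM17 knockdown, and the U2SURP shares of 35.7% higher and 21.4% lower are near the background. The initiation factor MTIF2 rose by 0.81, 0.41 and 0.45, and TACO1, an activator of cytochrome c oxidase subunit I translation, by 0.85, 0.17 and 0.15. The elongation factor TSFM rose after RBM17 (0.73) and CHERP knockdown (0.21). The release factor MTRF1 fell in all 3, by log2 differences of -0.43, -0.63 and -0.71, and MTIF3 fell after RBM17 knockdown (-0.31). The recycling factor MRRF rose after U2SURP (0.27) and CHERP knockdown (0.40) and had -0.06 after RBM17 knockdown. C12orf65, a ribosome rescue factor, rose by 0.39, 0.24 and 0.19. The elongation factor TUFM rose after RBM17 knockdown (0.33) and fell after CHERP knockdown (-0.17), and the insertase OXA1L was lower after RBM17 (-0.14) and U2SURP knockdown (-0.22) and higher after CHERP knockdown (0.17).

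Of 8 genes of mitochondrial transcription and replication, 6 rose and 2 fell after RBM17 knockdown, 4 rose and 2 fell after U2SURP knockdown, and 2 rose and 4 fell after CHERP knockdown. The share higher was 75.0% after RBM17 and 25.0% after CHERP knockdown, of only 8 genes. The single-stranded DNA binding protein SSBP1 rose in all 3, by 1.06, 0.59 and 0.51. TFAM, which packages mitochondrial DNA and starts its transcription, had 99.0, 98.0 and 92.3 CPM in RBM17 knockdown libraries, 75.9, 82.2 and 79.6 CPM in U2SURP knockdown libraries and 44.1, 47.9 and 50.6 CPM in CHERP knockdown libraries, against 52.8, 60.0 and 67.5 CPM in control libraries. It was above control in the first 2 groups (0.68 ± 0.07 and 0.40 ± 0.07) and below it in the third (-0.34 ± 0.07). TFB2M rose after RBM17 (0.78) and U2SURP knockdown (0.23), MTERF1 rose by 0.32, 0.24 and 0.37, and the polymerase POLG (-0.18, -0.28 and -0.37) and the elongation factor TEFM (-0.22, -0.21 and -0.30) fell in all 3.

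Of 9 transcription regulators of nuclear genes for mitochondria, 5 rose and 1 fell after RBM17 knockdown, 4 rose and 1 fell after U2SURP knockdown, and 4 rose and 2 fell after CHERP knockdown. The shares higher were 55.6%, 44.4% and 44.4%, of only 9 genes. NRF1 was higher by 0.46, 0.40 and 0.21, the GABP subunit genes GABPB1 by 0.72, 0.44 and 0.26 and GABPA by 0.25, 0.20 and 0.34. YY1 was higher after RBM17 (0.41 ± 0.05) and U2SURP knockdown (0.16 ± 0.05) and lower after CHERP knockdown (-0.16 ± 0.05). ESRRA fell after RBM17 (-0.30) and CHERP knockdown (-0.45), and ATF4 fell after U2SURP knockdown (-0.62) and was called higher after RBM17 (0.15) and CHERP knockdown (0.18).

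Members with more exons were higher relative to control than members with few. The exon number is that of the longest protein-coding transcript in GENCODE 29, with a median of 5 in members and 8 in protein-coding genes tested. Over the 23 members with 2 to 3 exons, the median log2 fold change was 0.29 after RBM17, -0.01 after U2SURP and -0.09 after CHERP knockdown. Over the 34 members with 4 to 6 exons, it was 0.53, 0.17 and 0.11, and over the 21 members with 7 or more exons 0.69, 0.31 and 0.44. Of members with 2 to 3 exons, 4 rose and 8 fell after CHERP knockdown, while of those with 7 or more, 17 rose and 1 fell. That is 17.4% higher and 34.8% lower in the first class, against 30.1% and 32.0% of protein-coding genes of that class at 5 CPM or more, so the share lower is near the background. In the class with 7 or more exons it is 81.0% higher and 4.76% lower, against 35.6% and 34.8%. The 27 members that rose in all 3 knockdowns had a median of 7 exons, and the 14 called higher after RBM17 knockdown alone had a median of 4.

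Among protein-coding genes at 5 CPM or more in the same exon classes, the medians were 0.15, 0.21 and 0.12 after RBM17 knockdown, 0.01, 0.09 and 0.05 after U2SURP knockdown and 0.00, 0.06 and 0.02 after CHERP knockdown. Spearman's rho of exon number with log2 fold change was 0.44, 0.57 and 0.57 over the 78 members and -0.04, 0.01 and -0.03 over 16291 protein-coding genes. In single libraries set against the control mean, rho over members lay between 0.42 and 0.47 for RBM17 knockdown, 0.52 and 0.60 for U2SURP knockdown and 0.56 and 0.58 for CHERP knockdown. It was 0.43, 0.51 and 0.52 over large-subunit genes and 0.44, 0.67 and 0.70 over small-subunit genes. Level moved with it in part: rho of mean level with log2 fold change over members at 5 CPM or more was 0.14, 0.33 and 0.45, against 0.49, 0.60 and 0.60 for exon number. Transcript length gave rho of -0.15, 0.08 and 0.10 over members, GC content -0.04, -0.24 and -0.31, and median intron length -0.01, 0.14 and 0.13. These are descriptions across genes, which share libraries and are not independent replicates, and the part of level in them was not tested.

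**Figure D5:**
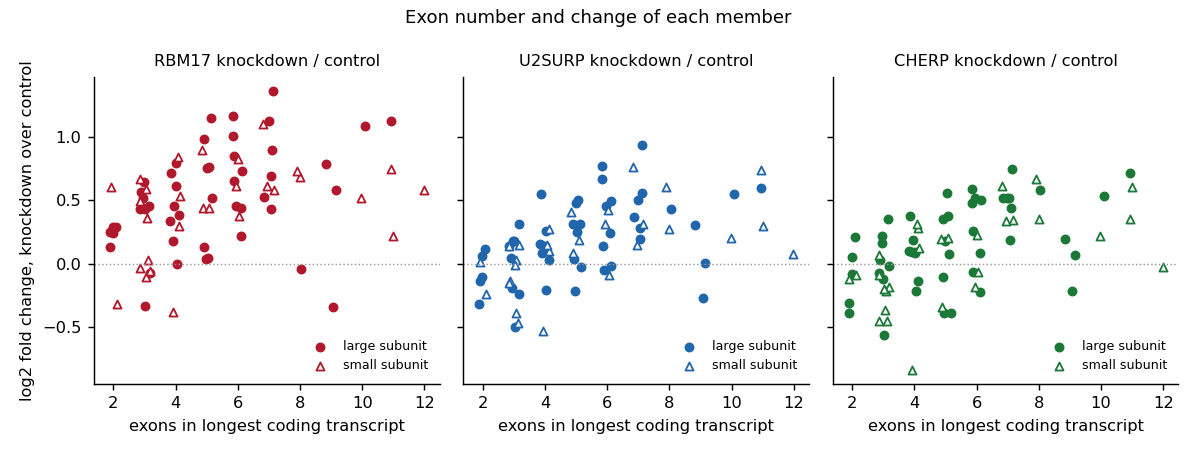
Log2 fold change of each member over control siRNA against the number of exons in its longest protein-coding transcript, for each knockdown (circles, large subunit; triangles, small subunit; points are spread sideways within an exon number). Members with 7 or more exons have medians of 0.69, 0.31 and 0.44, and members with 2 to 3 exons 0.29, -0.01 and -0.09.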

How the data were processed

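RNA was sequenced from 12 HEK293 libraries with a stranded mRNA kit, per the labels' protocols. The deposited files hold raw counts per Ensembl gene. HISAT2 2.0.5, SAMtools, HTSeq and GRCh38 are named per the submitters' processing notes, while the strand setting of the counting is not given in the sources used here. Library numbers within a group follow accession order, and the labels state no pairing. Deviations from the group mean of libraries with equal numbers correlated between groups at -0.254 to 0.542, over genes at 5 CPM or more. Whether such libraries share a batch was not tested.

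Genes were named by GENCODE 29 (56996 of 60554 identifiers). Genes that passed edgeR's filterByExpr, 29003 in all, entered 1 quasi-likelihood fit over the 4 groups (edgeR 4.0.16, R 4.3.3, TMM scaling). A call is an adjusted p under 0.05, Benjamini-Hochberg over all genes tested. CPM are TMM-scaled, and levels between genes are per kilobase of exon. Alternatives used DESeq2 1.42.0, other scalings, offsets and left-out libraries. The fit was tested on simulated data.

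The members and gene lists were chosen with earlier results of these data known. Named genes are the highest and lowest called members per contrast, those called alike or oppositely across knockdowns, the extremes of level, paralogues, and called companions with the smallest p; further genes named in a list's account were chosen after their values were seen. Promoter sequences are from RefSeq, GRCh38.p14.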

Additional observations from a re-analysis of the deposited data

How the results depend on the processing

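Of 489 recomputed counts, medians and ratios, 424 kept their value within 1.5 times or within the spread between replicates and 65 moved. A turn of direction could be seen only in the subunit medians and in rho with exon number, and none of these turned. With a minimum absolute log2 of 0.3, 25 members were higher and 4 lower after U2SURP knockdown, 9 lower after CHERP knockdown, 1 lower in RBM17 than in U2SURP and 3 lower in RBM17 than in CHERP knockdown, and 7 higher and 3 lower in U2SURP than in CHERP knockdown. With GC and length offsets, 11 were lower after RBM17 knockdown, 8 and 9 lower in RBM17 than in U2SURP and CHERP knockdown, 15 lower in U2SURP than in CHERP knockdown and 7 lower in all 3, and the medians (log2) were 0.31 and 0.33 (large, small; RBM17), 0.12 and 0.08 (U2SURP) and 0.03 (small; CHERP). In the offset fit the median over all genes after RBM17 knockdown was -0.19, against -0.10 in the main fit. Members lower in U2SURP than in CHERP knockdown numbered 13 over protein-coding genes alone, 12 in a fit of those groups alone (there the large-subunit median after U2SURP knockdown, in its own fit, was 0.19) and 11 without RBM17 knockdown library 2 and control library 3. Without those libraries 5 members were called oppositely, the medians were 0.22 and 0.18 (large, small; U2SURP) and 0.22 and 0.10 (CHERP), and rho with exon number was 0.419 (RBM17) and 0.55 (CHERP). With DESeq2 size factors, and with its Wald test, the medians were 0.20 and 0.17 (large, small; U2SURP) and 0.09 (small; CHERP), and with subunits by structure 0.02 (small; CHERP). Without members that overlap other exons, 2.70%, 5.41% and 13.5% were lower after RBM17, U2SURP and CHERP knockdown. The small-subunit sum was 1.11 times control after U2SURP knockdown without division by length. The cause was not tested.

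Leaving out each library in turn, members higher ranged 62 to 65 and lower 4 to 4 after RBM17 knockdown, 34 to 46 and 7 to 14 after U2SURP, and 29 to 40 and 11 to 18 after CHERP knockdown. They ranged 53 to 65 higher and 2 to 4 lower in RBM17 over U2SURP, 58 to 64 and 5 to 5 in RBM17 over CHERP, and 14 to 25 and 4 to 11 in U2SURP over CHERP knockdown. Members higher in all 3 ranged 22 to 35, lower in all 3 2 to 3, and opposite 5 to 12. Medians ranged 0.47 to 0.57 (large) and 0.49 to 0.58 (small) after RBM17, 0.15 to 0.22 and 0.12 to 0.18 after U2SURP, and 0.08 to 0.22 and 0.03 to 0.10 after CHERP knockdown, and rho 0.427 to 0.46, 0.546 to 0.594 and 0.55 to 0.589.

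Of 7176 recomputed values of named genes, 196 lost their call, 130 gained one and 7 turned direction, all 7 with GC and length offsets: MRPL10 (-0.14) and MRPS14 (-0.20) after RBM17 knockdown, MRPL41 (0.04) and AURKAIP1 (0.15) after CHERP knockdown, MRPS9 in RBM17 over U2SURP (-0.13), MRPL37 in RBM17 over CHERP (-0.19) and MRPL41 in U2SURP over CHERP knockdown (-0.17). No paired analysis was possible because the labels give the groups no shared replicate numbers.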

Other observations

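Of the 78 members, 15 have a protein-coding gene on the other strand that starts within 500 bases upstream of their own start, and 14 of these partners were tested. Genes on the other strand that start downstream of the member's start were not counted. After RBM17 knockdown 7 partners were higher and 5 lower (median log2 fold change 0.10), after U2SURP knockdown 4 and 5 (-0.06) and after CHERP knockdown 5 and 4 (0.01). MRPS11 and MRPL46 are members and each other's partner, and both count among the partners called higher after RBM17 knockdown. Over protein-coding genes 38.7% were higher and 27.2% lower after RBM17 knockdown, 29.4% and 26.8% after U2SURP knockdown, and 29.7% and 31.0% after CHERP knockdown. The partners' counts after U2SURP and CHERP knockdown are near these backgrounds. MRPL30 rose by 0.45, 0.45 and 0.52 after RBM17, U2SURP and CHERP knockdown, while MITD1, which starts 21 bases away, fell, with log2 fold changes of -0.49, -0.61 and -0.32. EME2, which starts 52 bases from MRPS34, had -0.66, -0.93 and -1.11, against 0.59, -0.01 and -0.20 for MRPS34. LRRC46, which starts 93 bases from MRPL10, had -1.48, -0.38 and -0.10, against 0.04, 0.25 and 0.56 for MRPL10. NDUFS6, a complex I subunit gene that starts 34 bases from MRPL36, had 0.88, 0.44 and 0.47, and TCP1, which starts 63 bases from MRPL18, had 0.76, 0.24 and 0.35.

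GENCODE 29 names 75 pseudogenes of 34 members, of which 12 passed the filter on low counts. MRPL3P1 had log2 fold changes of 1.31, 0.62 and 0.55, against 1.09, 0.55 and 0.53 for MRPL3. MRPS18AP1 had 0.82, 0.84 and -0.79, against 0.61, 0.31 and -0.19 for MRPS18A. MRPL45P2 had -0.46, 0.09 and -0.10, against -0.04, 0.44 and 0.58 for MRPL45. MRPL40P1, with a mean of 0.341 CPM in control libraries, had -1.469, -1.398 and -1.315, while MRPL40 was called higher after RBM17 knockdown. MRPS31P5 had -0.755, -0.327 and -0.231, while MRPS31 was called higher after RBM17 and CHERP knockdown. Reads could be split between such copies, so these values are uncertain.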
